A study of Sus scrofa with 11 samples.

Results

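The cultured vessels are all 9 libraries made from porcine coronary arteries kept in a bioreactor, of 11 RNA sequencing libraries in all, and they were chosen by their labels alone. They fall into 4 conditions: stented vessels held static (Stent/Flow -, 2 libraries), stented vessels under the stronger of the flow marks (Stent/Flow ++, 3 libraries, called stented high flow), unstented vessels at that same flow (Flow ++, 2 libraries, high flow), and unstented vessels at the weaker one (Flow +, 2 libraries, low flow). The other 2 libraries came from native coronary arteries (Native control). The study built a culture model of the stented artery, and the question here was what all cultured vessels share against native tissue whatever the flow or stent. Every library is one of whole vessel wall, so fewer cells of a type and less RNA per cell cannot be told apart in any value below. The sources used here give neither strain, age and sex of the pigs nor the length of culture and the medium. They also do not say that libraries of 1 group are from different animals, so p-values measure only how much these samples spread, and that spread may be technical.

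The wall of a coronary artery is mostly a media of smooth muscle cells, lined by endothelium and wrapped in an adventitia of fibroblasts, nerves and fat. Smooth muscle cells are not fixed in their state: in injured or cultured vessels they are known to lower the genes of the contractile apparatus and to raise those for matrix, proteases and migration. Glycolysis, which turns glucose into lactate, is a pathway that the hypoxia-inducible factors raise, and the mitochondria carry the oxidative alternative, with subunits from both the nuclear and the mitochondrial genome.

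Libraries held 13496636 to 26785124 counts in cultured vessels and 17507068 and 20242681 in native arteries, and 16902 to 18018 genes had a count in a cultured library against 17782 and 17461 in the native ones. No pair of replicates agreed within sampling noise. Smooth muscle markers MYH11, ACTA2 and MYL9 and the endothelial markers PECAM1 and CDH5 were present in all libraries, as the tissue label says. The Y-linked genes EIF1AY and KDM5D together had 0 or 1 counts in the stented static and low-flow libraries. They had 450 to 884 counts in the stented high-flow and high-flow libraries, against 576 and 656 counts in the native ones. By these counts the stented static and low-flow libraries differ from native in the sex of the pig. In those conditions culture cannot be told apart from sex. Levels are counts per 1000000 counts (CPM), with library sizes scaled by TMM, usually shown as the lowest, highest and median of the 9 cultured libraries beside both native values. Changes are log2 fold changes of cultured over native ± standard error, with the 4 conditions weighted equally. Adjusted p-values of genes are those of the edgeR quasi-likelihood test, adjusted by Benjamini and Hochberg's method over 15348 genes, and a gene was called at an adjusted p under 0.05. A gene near 0 counts in 1 group passed the filter only through the other group, so its p-value is not used as support.

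Cultured vessels differed from native in a large share of the genes tested, more of them lower than higher. Against native, 3949 genes were called (25.7% of those tested), 1502 of them higher (9.79%) and 2447 lower (15.9%) in cultured vessels. In 3459 of the called genes (22.5% of those tested) the groups did not overlap: all 9 cultured libraries lay above both native ones for 1357 genes (8.84%) and below both for 2102 genes (13.7%). Whether called or not, all 9 cultured libraries lay above both native ones for 14.1% and below for 16.9% of the genes tested. The falls were also the larger changes, since 1251 called genes fell and 472 rose by more than 2 on the log2 scale. The median over all genes tested was 0.02. A test among the 4 cultured conditions, in which native does not enter, called 156 genes (1.02%), 107 of them among the genes called against native. That count depended on the tool and filter, at 1269 in DESeq2 and 753 with no filter on low counts.

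Distances between libraries gave the same picture. The root mean square log2 difference over all genes tested was 1.37 to 1.72 in the 18 pairs of a cultured and a native library, with a median of 1.52. Between cultured libraries of different conditions it was 0.674 to 1.42 in 30 pairs, with a median of 0.964, and within a condition 0.575 to 1.10 in 6 pairs, with a median of 0.851. The native pair differed by 0.680. Over the called genes that did not overlap, the median log2 difference of a cultured library from the native mean was smallest in stented static replicate 2, at 1.24 for the higher and -1.77 for the lower genes, and largest in stented high-flow replicate 3, at 1.69 and -2.38. The number of calls rests on both native libraries: it was 1693 without native replicate 1 and 1713 without native replicate 2, with 384 and 365 genes higher and 1309 and 1348 lower.

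**Figure D1:**
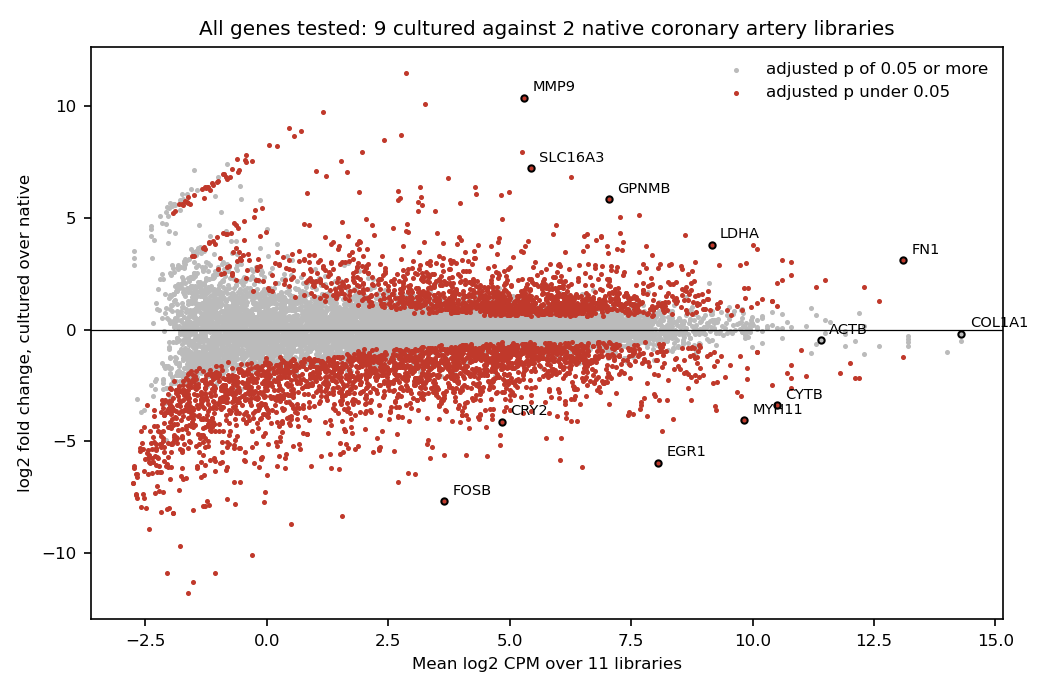
Log2 fold change of cultured over native (vertical axis) against the mean log2 CPM over 11 libraries (horizontal axis) for the 15348 genes tested, with the 3949 called genes in red and 12 genes of the text labelled. SLC16A3 and GPNMB lie far up, EGR1 and FOSB far down, and COL1A1 and ACTB near 0.

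Contractile genes of smooth muscle were lower almost throughout. Of 16 tested members of that list 13 fell, none rose, and the median log2 change was -2.76, against 0.02 over all genes. MYH11, the smooth muscle myosin heavy chain (chromosome 3, 7002667 to 7143093 in Sscrofa11.1), was between 65.5 and 2570 CPM (median 685) in the cultured libraries, against 11100 and 12600 CPM in the native ones. MYH11 fell by 4.05 ± 0.71 log2 units (adjusted p = 0.00194). CNN1, the actin-binding calponin (chromosome 2, 70183370 to 70190756), was between 24.7 and 505 CPM (median 288) in the cultured libraries, against 3070 and 4320 CPM in the native ones. CNN1 fell by 3.99 ± 0.58 log2 units (adjusted p = 0.000604). ACTG2, the enteric smooth muscle actin (chromosome 3, 69097366 to 69121542), had 5.41 to 652 CPM in cultured vessels (median 239), against 1680 and 2470 CPM in native arteries. ACTG2 fell by 3.88 ± 0.50 log2 units (adjusted p = 0.000293). In all 3 genes the native levels stood above the highest cultured library, and stented static replicate 1 was the lowest library of the 9. ACTA2, smooth muscle alpha actin (chromosome 14, 100868145 to 100886732), had 42.6 to 3170 CPM in cultured vessels (median 2200), against 7660 and 9670 CPM in native arteries (log2 change -2.63 ± 0.57, adjusted p = 0.00649), lowest in stented static at 42.6 and 624 CPM and in high-flow replicate 1 at 865 CPM. Desmin, DES, fell too (-3.16, adjusted p = 0.00337). MYOCD, the coactivator that drives these genes with serum response factor, was 7.94 to 34.2 CPM (median 21.3) in culture and 43.4 and 45.9 CPM in native, all 9 cultured libraries again below both native ones, but it was not called (adjusted p = 0.0806), and neither was TAGLN (adjusted p = 0.0907). The summed level of the list was 1470 to 12400 CPM in the cultured libraries (median 7590), against 45800 and 59500 CPM in the native ones. By condition against native, 12 members fell in stented static, 11 in stented high flow, 10 in high flow and 4 in low flow. The list median in low flow was -2.02. MYH11 was not called in low flow (adjusted p = 0.187), and ACTA2 was called in stented static only (adjusted p = 0.0124). Without native replicate 1 and without native replicate 2 the count of falls was 12 and 10, and ACTA2 was not called without native replicate 2 (adjusted p = 0.0715).

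Of 18 tested genes through which vessels sense and transmit vasoactive signals, 6 were lower (33.3%) and 2 higher (11.1%), with a median of -0.54. Over all genes tested 15.9% were called lower and 9.79% higher, so the share of rises was near that of all genes. P2RX1, the ATP-gated channel of smooth muscle (chromosome 12, 49956329 to 49974789), was between 0.422 and 2.02 CPM (median 0.611) in the cultured libraries, against 18.9 and 7.13 CPM in the native ones. P2RX1 fell by 4.18 ± 0.42 log2 units (adjusted p = 6.71e-05). RGS5, a brake on G protein signalling (chromosome 4, 87286953 to 87340816), was between 8.81 and 221 CPM (median 51.7) in the cultured libraries, against 473 and 945 CPM in the native ones. RGS5 fell by 3.72 ± 0.47 log2 units (adjusted p = 0.000272). The other falls included the cyclic GMP dependent kinase PRKG1 at -1.95 (adjusted p = 0.0171), the phosphodiesterase PDE5A at -1.22 (adjusted p = 0.0254) and the cyclase subunits GUCY1A1 (-0.82) and GUCY1B1 (-0.87). None of these 4 was called without native replicate 1 (adjusted p = 0.0506, 0.0562, 0.14 and 0.0943 in that order) or without native replicate 2 (adjusted p = 0.21, 0.327, 0.389 and 0.334). The 2 rises were receptors for constrictors: EDNRA, the endothelin receptor (chromosome 8, 81210750 to 81279053), had 49.8 to 371 CPM in cultured vessels (median 166), against 38.7 and 40.7 CPM in native arteries. EDNRA rose by 2.25 ± 0.65 log2 units (adjusted p = 0.0257). HTR2A, a serotonin receptor (chromosome 11, 20555939 to 20620225), had 2.96 to 56.8 CPM in cultured vessels (median 25.1), against 4.36 and 3.39 CPM in native arteries. HTR2A rose by 2.65 ± 0.65 log2 units (adjusted p = 0.0122). Stented static replicate 1 alone kept HTR2A from lying apart from native. The calls of EDNRA and HTR2A did not hold without native replicate 1 (adjusted p = 0.168 and 0.0904) or native replicate 2 (adjusted p = 0.151 and 0.118). The falls numbered 2 and 2 without either native library in turn, and 3 without low-flow replicate 2.

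Immediate early genes encode transcription factors and feedback regulators that many stimuli switch on quickly and briefly. They were the list with the largest share of falls among the 37 examined, with 19 of 20 tested members down, none up and a median of -2.98. FOSB, a partner in the AP-1 factor (chromosome 6, 51836780 to 51844531), was between 1.12 and 52.8 CPM (median 3) in the cultured libraries, against 1370 and 753 CPM in the native ones. FOSB fell by 7.68 ± 0.54 log2 units (adjusted p = 7.02e-06). FOS (chromosome 7, 98449508 to 98451971) was between 10.9 and 192 CPM (median 31.9) in the cultured libraries, against 3210 and 3390 CPM in the native ones. FOS fell by 6.15 ± 0.47 log2 units (adjusted p = 1.15e-05). EGR1, a zinc finger factor (chromosome 2, 140440829 to 140445302), was between 52 and 387 CPM (median 112) in the cultured libraries, against 7610 and 8460 CPM in the native ones. EGR1 fell by 5.95 ± 0.34 log2 units (adjusted p = 3.01e-06). The orphan nuclear receptors NR4A1 and NR4A3 showed the same, NR4A1 with 15.5 to 95.6 CPM in cultured vessels (median 27.2), against 2270 and 1480 CPM in native arteries (log2 change -5.86 ± 0.30, adjusted p = 1.89e-06), NR4A3 with 2.76 to 10.3 CPM in cultured vessels (median 5.54), against 178 and 245 CPM in native arteries. NR4A3 fell by 5.26 ± 0.31 log2 units (adjusted p = 3.05e-06). None of these ranges touch, and the lowest native value is over 10 times the highest cultured value for EGR1, FOS, FOSB, NR4A1 and NR4A3. Further down the list, ATF3 (-3.63), JUN (-3.38) and MYC (-1.51) fell by smaller amounts. FOSL1, an AP-1 member that lasts longer after a stimulus, was the one tested member that did not fall: it had 18.7 to 47.6 CPM in cultured vessels (median 28.3), against 16.9 and 14.6 CPM in native arteries (adjusted p = 0.0604). JUNB is listed at 0 in all 11 libraries and was not tested. The summed level of the list was 909 to 2190 CPM in the cultured libraries (median 1530), against 21200 and 20800 CPM in the native ones, and without native replicate 1 and 2 in turn 15 and 17 members fell.

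Clock genes also stood apart, and in opposite directions for the opposite arms of the clock. The molecular clock is a loop in which the activators BMAL1, CLOCK and NPAS2 switch on period and cryptochrome genes, whose products then repress the activators, and output genes such as DBP and HLF follow the activators. Of 18 tested members 11 fell and 2 rose (median -1.13). CRY2, a cryptochrome repressor (chromosome 2, 16587101 to 16620380), was between 11.9 and 22 CPM (median 17.8) in the cultured libraries, against 367 and 229 CPM in the native ones. CRY2 fell by 4.12 ± 0.20 log2 units (adjusted p = 1.23e-06). HLF, an output factor (chromosome 12, 31589337 to 31643595), was between 2.01 and 10 CPM (median 4.27) in the cultured libraries, against 61.2 and 71.2 CPM in the native ones. HLF fell by 3.92 ± 0.31 log2 units (adjusted p = 1.28e-05). DBP, another, changed by -2.25 (adjusted p = 0.000376). PER2 was 8.38 to 22.4 CPM (median 12.2) in culture and 87.3 and 62.1 CPM in native (log2 change -2.57 ± 0.26, adjusted p = 5.75e-05). The risers were both activators: NPAS2 (chromosome 3, 53298805 to 53490375) had 50.7 to 153 CPM in cultured vessels (median 96.8), against 25.1 and 22.1 CPM in native arteries. NPAS2 rose by 2.05 ± 0.28 log2 units (adjusted p = 0.000449). BMAL1 had 19.8 to 28.4 CPM in cultured vessels (median 22), against 7.03 and 7.82 CPM in native arteries. BMAL1 rose by 1.63 ± 0.23 log2 units (adjusted p = 0.000492). For every gene just named the 9 cultured libraries lay on one side of both native ones. CLOCK itself, at 28.5 to 74.7 CPM (median 55.9) in culture and 28 and 34.3 CPM in native, was not called (adjusted p = 0.173), nor was NR1D1 (adjusted p = 0.609). Without native replicate 1 and 2 in turn, 6 and 7 members fell, while NPAS2 and BMAL1 stayed called.

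Glycolysis and the hypoxia response were the list with the largest share of rises among the 37. Of 24 tested members 18 rose, all 18 with no overlap between groups, and 1 fell; the median was 2.01. SLC16A3, the monocarboxylate carrier that exports lactate (chromosome 12, 796882 to 807480), was between 64 and 276 CPM (median 87.8) in the cultured libraries, against 1.24 and 0.288 CPM in the native ones. SLC16A3 rose by 7.23 ± 0.80 log2 units (adjusted p = 0.000113). LDHA, which makes lactate from pyruvate (chromosome 2, 40814163 to 40827284), was between 579 and 1450 CPM (median 895) in the cultured libraries, against 54.5 and 76.4 CPM in the native ones. LDHA rose by 3.81 ± 0.39 log2 units (adjusted p = 7.17e-05). Carbonic anhydrase CA12, a surface enzyme of acid handling (chromosome 1, 108649277 to 108710658), had 64.9 to 153 CPM in cultured vessels (median 125), against 3.84 and 4.83 CPM in native arteries. CA12 rose by 4.68 ± 0.33 log2 units (adjusted p = 7.02e-06). NDUFA4L2, a hypoxia-induced protein of the mitochondrial electron transport chain (chromosome 5, 22540482 to 22548418), had 113 to 896 CPM in cultured vessels (median 334), against 12.1 and 6.5 CPM in native arteries. NDUFA4L2 rose by 5.05 ± 0.57 log2 units (adjusted p = 0.000128). In all 4 genes the lowest cultured library lay far above the higher native one. Other called members were the first enzyme HK2 at 3.48, the later ones GAPDH at 1.90, ENO1 at 3.02 and PKM at 2.47, and the growth factor VEGFA at 3.05. PFKFB3, which sets the level of a glycolytic activator, was the one member that fell, at 57.8 to 219 CPM (median 84.3) in culture and 273 and 121 CPM in native (adjusted p = 0.0233), and it was not called without native replicate 1 (adjusted p = 0.536). TPI1 and ADM were not called. The summed level of the list was 11600 to 21000 CPM in the cultured libraries (median 14000), against 3580 and 3350 CPM in the native ones, and 14 and 15 members rose without native replicate 1 and without native replicate 2.

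Mitochondrial transcripts split by genome. Genes encoded in the mitochondrial DNA made up 3.19% to 8.65% of all counts in cultured libraries (median 4.85%), against 10.3% and 10.7% in native ones, a mean difference of -5.43 percentage points (exact two-sided permutation test over 55 splits, p = 0.0364, the smallest that 9 against 2 libraries can give). High-flow replicate 2 was the highest cultured library, and all 9 lay below both native ones. With either native library left out the exact p was 0.2, and without both stented static libraries the difference was -5.11 and p = 0.0556. Among the 13 mitochondrially encoded genes 10 fell and none rose. CYTB, a subunit of complex III, was between 573 and 1320 CPM (median 963) in the cultured libraries, against 10600 and 9470 CPM in the native ones. CYTB fell by 3.38 ± 0.26 log2 units (adjusted p = 1.14e-05). ATP6, of the ATP synthase, was between 2320 and 4670 CPM (median 3180) in the cultured libraries, against 13600 and 16100 CPM in the native ones. ATP6 fell by 2.18 ± 0.23 log2 units (adjusted p = 9.3e-05). COX1, of complex IV, was 9340 to 37400 CPM (median 20000) in culture and 30300 and 23900 CPM in native and was not called (adjusted p = 0.292). Nuclear genes for the same complexes behaved otherwise: of 24 tested, 2 fell, none rose, and for 20 the 95% interval of the change lay within 2-fold, as it did for 28.2% of all genes tested. The 2 that fell were COX7A1, the heart and muscle form of a complex IV subunit (-1.70), and NDUFB9 (-0.76). Neither was called without native replicate 1, and NDUFB9 was not called without native replicate 2 either. Genes of the tricarboxylic acid cycle lay close to native as well. Of its 21 tested genes 16 lay within 2-fold, none fell, and IDH3A rose (log2 change 1.16 ± 0.33, adjusted p = 0.0252), with a call that did not hold without either native library (adjusted p = 0.157 and 0.176). Its summed level was 1640 to 2110 CPM in the cultured libraries (median 1780), against 1790 and 1730 CPM in the native ones.

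**Figure D2:**
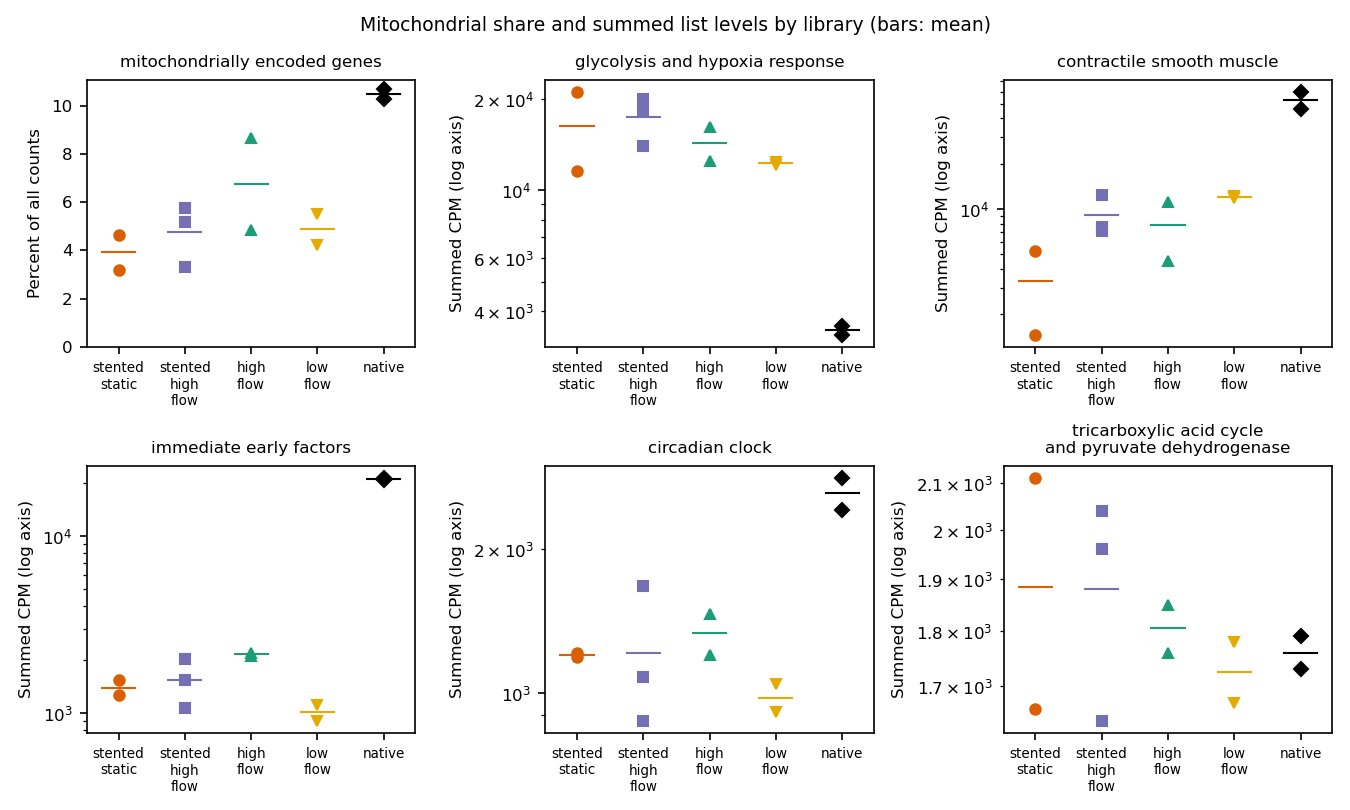
Percent of all counts from mitochondrially encoded genes (linear axis) and summed CPM of 5 gene lists (log axes) by condition, 1 point per library, with bars at the group mean. Native arteries lie apart from all 9 cultured libraries except for the tricarboxylic acid cycle, where 1640 to 2110 CPM in culture spans the native 1790 and 1730 CPM.

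Of 20 fatty acid oxidation genes 4 fell and 1 rose (median -0.31), where 15.9% of all genes tested fell and 9.79% rose. Falls numbered 2 and 3 without native replicate 1 and 2 in turn, with no rise. ACAA2, the thiolase of the last step (chromosome 1, 99284467 to 99310759), was between 9.65 and 18.3 CPM (median 14.1) in the cultured libraries, against 55.9 and 46.4 CPM in the native ones. ACAA2 fell by 1.89 ± 0.23 log2 units (adjusted p = 0.00018). CPT2, which takes acyl groups into the mitochondrial matrix (chromosome 6, 159038129 to 159061327), was between 22.3 and 34.2 CPM (median 24) in the cultured libraries, against 70.5 and 72.8 CPM in the native ones. CPT2 fell by 1.48 ± 0.20 log2 units (adjusted p = 0.00043). Neither range reached the native values. The coactivator PPARGC1A was at 0.0718 to 1.82 CPM (median 0.35) in culture and 4.49 and 0.978 CPM in native; its call rested on native replicate 1 (adjusted p = 0.00766, and 0.426 without it). Of 23 cholesterol synthesis genes 8 rose and 3 fell, with a median of 1.02. CYP51A1, a demethylase of the pathway, had 55.7 to 133 CPM in cultured vessels (median 96.6), against 25.7 and 39.2 CPM in native arteries. CYP51A1 rose by 1.57 ± 0.35 log2 units (adjusted p = 0.00756). TM7SF2, a sterol reductase (chromosome 2, 7076778 to 7081502), had 0.559 to 3 CPM in cultured vessels (median 1.35), against 10 and 9.43 CPM in native arteries. TM7SF2 fell by 2.78 ± 0.44 log2 units (adjusted p = 0.000991). Rises numbered 0 and 1 and falls 1 and 1 without native replicate 1 and 2 in turn, and CYP51A1 was not called without native replicate 1 (adjusted p = 0.128).

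Lysosomal genes and genes of the oxidative stress response were higher. Of 27 lysosome and lipid handling members 13 rose and 1 fell (median 0.96). A list of 18 tested genes joins general oxidative stress genes and targets of the antioxidant factor NRF2, and is called the NRF2 list for short. Of these, 12 rose and none fell (median 1.22). GPNMB, a lysosomal membrane glycoprotein known from lipid-laden macrophages (chromosome 9, 92037428 to 92071501), was between 77.1 and 860 CPM (median 243) in the cultured libraries, against 4.88 and 5.64 CPM in the native ones. GPNMB rose by 5.86 ± 0.56 log2 units (adjusted p = 4.75e-05). Cathepsin B, CTSB, a lysosomal protease (chromosome 14, 15014139 to 15035081), was between 1310 and 4820 CPM (median 1790) in the cultured libraries, against 453 and 490 CPM in the native ones. CTSB rose by 2.09 ± 0.37 log2 units (adjusted p = 0.00215). HMOX1, which breaks down haem, was between 61.6 and 418 CPM (median 122) in the cultured libraries, against 14.9 and 10.8 CPM in the native ones (log2 change 3.53 ± 0.41, adjusted p = 0.000161), highest in both stented static libraries at 376 and 418 CPM. SOD2, the mitochondrial superoxide dismutase (chromosome 1, 7679352 to 7689564), was between 195 and 1490 CPM (median 431) in the cultured libraries, against 65.1 and 59.3 CPM in the native ones. SOD2 rose by 2.95 ± 0.45 log2 units (adjusted p = 0.000847). GCLC, which starts glutathione synthesis (chromosome 7, 27209565 to 27253535), had 13.2 to 53.8 CPM in cultured vessels (median 28.3), against 6.64 and 6.79 CPM in native arteries (log2 change 2.01 ± 0.40, adjusted p = 0.00386; adjusted p = 0.0541 without native replicate 1). Every cultured library exceeded both native ones for these 5 genes. SLC7A11, a cystine carrier often used to read NRF2 activity, was not called, at 6.13 to 63.4 CPM (median 40.8) in culture and 20.3 and 26.1 CPM in native (adjusted p = 0.398). ABCG1, a cholesterol exporter, fell (log2 change -1.76 ± 0.34, adjusted p = 0.00319). The summed level of the lysosome list was 6330 to 18500 CPM in the cultured libraries (median 7750), against 3640 and 3760 CPM in the native ones, and that of the NRF2 list was 2300 to 4980 CPM in the cultured libraries (median 2800), against 1180 and 1110 CPM in the native ones. Stented static replicate 1 was the highest library in both. Left without native replicate 1 and 2 in turn, 2 and 3 lysosome members and 5 and 6 NRF2 members rose.

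Genes of protein synthesis and folding rose in part, while ribosomal and proteasome genes lay mostly within 2-fold of native. Of 23 members of the amino acid response, which the factor ATF4 drives when amino acids are short or folding fails, 11 rose and none fell (median 1.20). DDIT4, an inhibitor of mTORC1 (chromosome 14, 75117708 to 75119907), was between 309 and 888 CPM (median 548) in the cultured libraries, against 71.9 and 74.4 CPM in the native ones. DDIT4 rose by 2.87 ± 0.31 log2 units (adjusted p = 9.69e-05). SHMT2, the mitochondrial serine hydroxymethyltransferase, was between 130 and 294 CPM (median 186) in the cultured libraries, against 34.1 and 25.3 CPM in the native ones. SHMT2 rose by 2.67 ± 0.29 log2 units (adjusted p = 9.3e-05). Both genes were separated from native in all libraries. CHAC1, which degrades glutathione, had 13.1 to 60.8 CPM in cultured vessels (median 21.9), against 3.58 and 2.24 CPM in native arteries. CHAC1 rose by 3.10 ± 0.58 log2 units (adjusted p = 0.00295). The stress hormone GDF15 had 0.973 to 28.1 CPM in cultured vessels (median 4.86), against 0.521 and 0.288 CPM in native arteries (log2 change 3.83 ± 0.93, adjusted p = 0.012). Neither CHAC1 nor GDF15 was called without native replicate 2, and GDF15 was not called without native replicate 1 either. Of 22 unfolded protein and heat shock members 10 rose and none fell (median 0.77), all 10 encoding proteins of the endoplasmic reticulum, among them MANF (log2 change 1.39 ± 0.23, adjusted p = 0.00132), while the cytosolic heat shock genes DNAJB1 (-0.45, adjusted p = 0.221) and HSPH1 (-0.30, adjusted p = 0.582) were not called. Cytosolic tRNA synthetases had 9 of 19 members higher and none lower (median 1.05). By contrast 15 of 19 ribosomal protein genes and 18 of 25 proteasome genes lay within 2-fold. The 1 ribosomal call was RPS2 (log2 change 2.24 ± 0.36, adjusted p = 0.00111), at 8.36 to 18.1 CPM (median 11.9) in culture and 3.19 and 2.01 CPM in native, a gene whose reads may be shared with near-identical copies and is uncertain for that reason. Of the proteasome 4 rose and 1 fell. These rises rested on both native libraries: without native replicate 1 and 2 in turn 4 and 2 ATF4 targets, 1 and 1 folding genes, 0 and 1 tRNA synthetases and 0 and 0 proteasome genes rose, and without low-flow replicate 1 5 tRNA synthetases did.

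Of 23 genes of the non-muscle actin cytoskeleton, which carries cell shape and migration, 6 rose and 2 fell (median 0.45). CAPG, which caps actin filaments (chromosome 3, 59335483 to 59366855), was between 102 and 382 CPM (median 240) in the cultured libraries, against 37.8 and 40.8 CPM in the native ones (log2 change 2.58 ± 0.51, adjusted p = 0.00374; adjusted p = 0.0592 without native replicate 1), and the bundling protein FSCN1 rose too (log2 change 1.18 ± 0.38, adjusted p = 0.043). ACTN4, a crosslinker of filaments (chromosome 6, 47493834 to 47565999), had 431 to 594 CPM in cultured vessels (median 530), against 1270 and 1450 CPM in native arteries. ACTN4 fell by 1.39 ± 0.18 log2 units (adjusted p = 0.000334). ACTB, cytoplasmic beta actin, had 1530 to 3660 CPM in cultured vessels (median 2720), against 3180 and 3710 CPM in native arteries, so the groups overlapped (adjusted p = 0.169). Rises numbered 0 and 2 without native replicate 1 and 2 in turn.

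**Figure D3:**
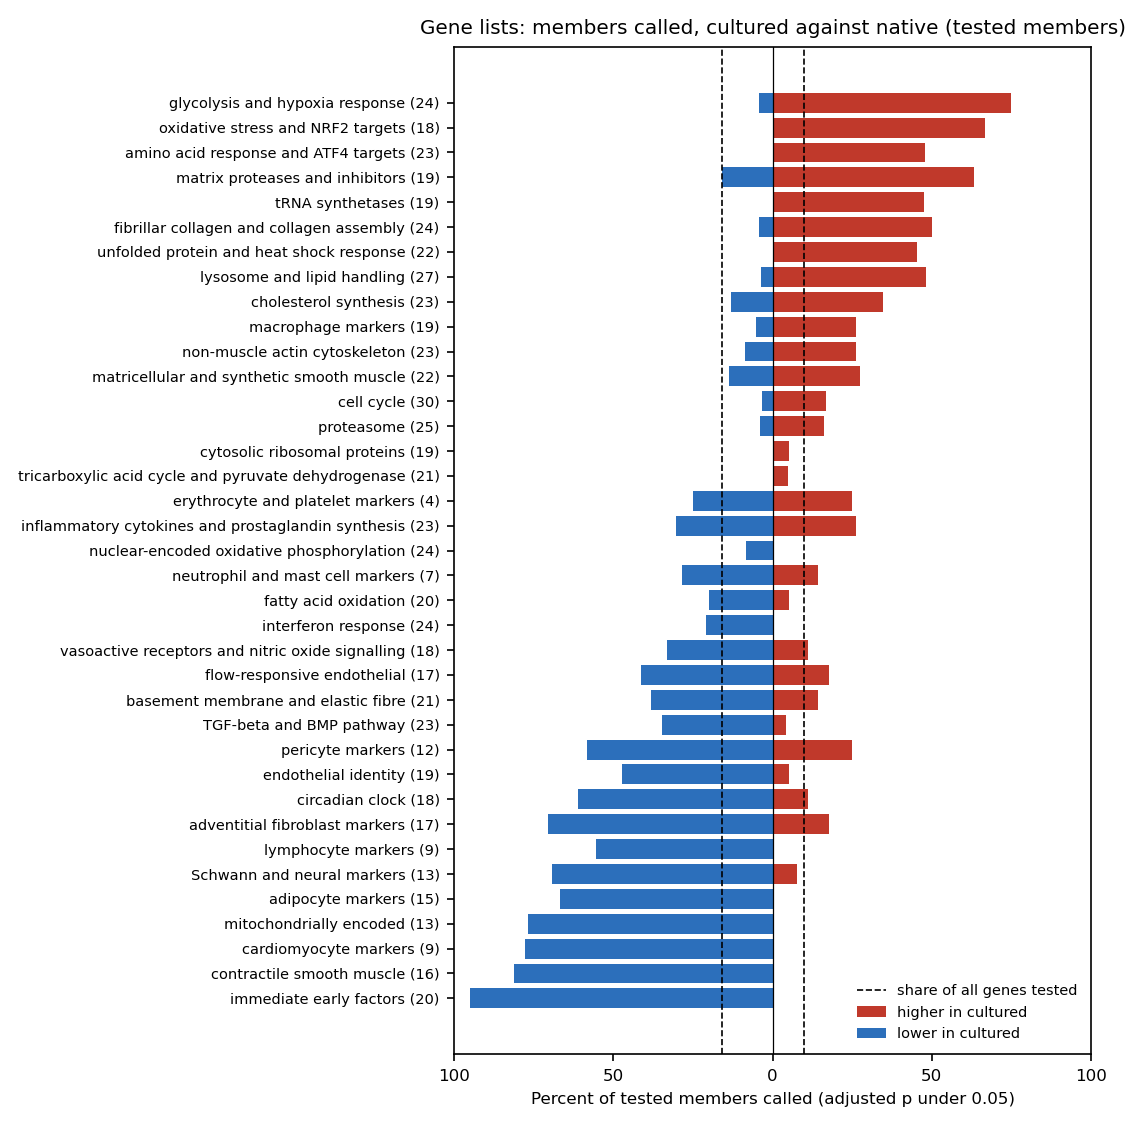
Percent of tested members of each of 37 gene lists called higher (red, to the right) and lower (blue, to the left) in cultured against native, with the number of tested members in brackets and dashed lines at the shares over all genes tested, 9.79% higher and 15.9% lower. Glycolysis, the list of oxidative stress genes and NRF2 targets, and matrix proteases reach furthest to the right and immediate early and contractile genes furthest to the left.

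Matrix proteases and their inhibitors had 12 of 19 tested members higher and 3 lower (median 2.23). MMP9, gelatinase B (chromosome 17, 48179690 to 48186782), was between 5.35 and 480 CPM (median 201) in the cultured libraries, against 0.13 and 0.0575 CPM in the native ones. MMP9 passed the filter only through the cultured libraries, so its test is not used as support. Its pooled counts over pooled library sizes were 2480-fold higher in culture. With 3 native counts in all, that ratio is known only to a counting interval of 848 to 12000 (95%). MMP9 was lowest in the 2 stented static libraries, at 26.9 and 5.35 CPM, and still above native there. TIMP1, an inhibitor of these proteases (chromosome X, 42103251 to 42106289), rose as well, with 438 to 4220 CPM in cultured vessels (median 2290), against 122 and 145 CPM in native arteries (log2 change 3.62 ± 0.39, adjusted p = 9.13e-05), whereas TIMP4 (-2.77, adjusted p = 0.000275) and TIMP3 (-1.73, adjusted p = 0.00699), the inhibitor held in the matrix, fell. MMP14, the membrane protease (chromosome 7, 76174502 to 76185931), was between 1470 and 2730 CPM (median 2060) in the cultured libraries, against 412 and 474 CPM in the native ones. MMP14 rose by 2.23 ± 0.32 log2 units (adjusted p = 0.000524). In the plasminogen system the receptor PLAUR was between 75.1 and 351 CPM (median 165) in the cultured libraries, against 12 and 10.2 CPM in the native ones. PLAUR rose by 3.75 ± 0.39 log2 units (adjusted p = 7.71e-05). In none of these 6 genes did a cultured library overlap native. The collagenase MMP1 was at 0.861 to 42.6 CPM (median 6.94) in culture and 0.13 and 0 CPM in native. The macrophage elastase MMP12 was at 0.079 to 70.6 CPM (median 2.82) in culture and 0 and 0.23 CPM in native. Both passed the filter only through the cultured libraries, so no test of them is used as support. Neither call held without native replicate 1 or 2, and that of TIMP3 did not hold without native replicate 1. Rises numbered 8 and 7 without native replicate 1 and 2 in turn.

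Collagen chains and the enzymes that modify them parted. Of the 24 collagen and collagen assembly genes 12 rose and 1 fell (median 1.35), and 11 of the 12 that rose encode enzymes or chaperones, COL6A3 being the only chain (log2 change 1.93 ± 0.41, adjusted p = 0.00573). LOXL2, a crosslinking lysyl oxidase (chromosome 14, 7435861 to 7540699), was between 133 and 1110 CPM (median 381) in the cultured libraries, against 58.1 and 51 CPM in the native ones. LOXL2 rose by 2.77 ± 0.46 log2 units (adjusted p = 0.00145). The prolyl hydroxylase subunit P4HA3 (chromosome 9, 8627365 to 8681804) was between 25.2 and 152 CPM (median 74.7) in the cultured libraries, against 10.7 and 12.1 CPM in the native ones. P4HA3 rose by 2.45 ± 0.35 log2 units (adjusted p = 0.000524). The lysyl hydroxylase PLOD1 (chromosome 6, 71987938 to 72019712) was between 220 and 713 CPM (median 380) in the cultured libraries, against 92.8 and 92.7 CPM in the native ones. PLOD1 rose by 2.13 ± 0.38 log2 units (adjusted p = 0.0021). These 3 ranges did not reach native. The fibrillar chains did: COL1A1 (chromosome 12, 26379087 to 26397180) was between 7560 and 44600 CPM (median 24900) in the cultured libraries, against 20500 and 26000 CPM in the native ones (log2 change -0.18 ± 0.44, adjusted p = 0.804), and COL3A1 (chromosome 15, 93556914 to 93595678) was between 2060 and 34700 CPM (median 18700) in the cultured libraries, against 27500 and 32400 CPM in the native ones (log2 change -1.0 ± 0.51, adjusted p = 0.178), so for both chains native lay inside the cultured range. The 95% interval of COL1A1 ran from -1.15 to 0.80. LOXL1, an oxidase of elastic fibres, fell (log2 change -1.44 ± 0.39, adjusted p = 0.019). Without native replicate 1 and 2 in turn 4 and 6 members rose, COL6A3 and LOXL1 not among the calls (adjusted p = 0.0602 and 0.137 without native replicate 1).

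Elastic fibre and basement membrane genes went down more often than up, 8 of 21 tested against 3 (median -0.66). ELN, elastin (chromosome 3, 11214194 to 11245891), was between 295 and 1590 CPM (median 519) in the cultured libraries, against 4730 and 5310 CPM in the native ones. ELN fell by 2.97 ± 0.33 log2 units (adjusted p = 0.000111). MFAP5, a microfibril glycoprotein (chromosome 5, 62742520 to 62757522), was between 4.31 and 53.4 CPM (median 8.88) in the cultured libraries, against 220 and 255 CPM in the native ones. MFAP5 fell by 3.98 ± 0.62 log2 units (adjusted p = 0.000989). LTBP4, which binds latent TGF-beta and helps assemble elastic fibres (chromosome 6, 48831018 to 48861503), was between 75.6 and 248 CPM (median 136) in the cultured libraries, against 1770 and 1420 CPM in the native ones. LTBP4 fell by 3.54 ± 0.28 log2 units (adjusted p = 1.26e-05). COL18A1, a basement membrane collagen, fell as well, also with no overlap (log2 change -2.23 ± 0.23, adjusted p = 7.12e-05). FBN1, the main microfibril protein, was 205 to 1380 CPM (median 870) in culture and 820 and 592 CPM in native and not called (adjusted p = 0.948). Among 22 matricellular genes and genes of the synthetic smooth muscle state 6 rose and 3 fell (median 0.09). FN1, fibronectin (chromosome 15, 117658158 to 117737145), was between 1800 and 42500 CPM (median 18200) in the cultured libraries, against 1490 and 1450 CPM in the native ones (log2 change 3.11 ± 0.62, adjusted p = 0.00422), a wide range whose lowest library, stented static replicate 1, was only a little above native; its call did not hold without native replicate 1 or 2 (adjusted p = 0.0579 and 0.0569). SPP1, osteopontin (chromosome 8, 131077786 to 131085334), was between 67.6 and 429 CPM (median 213) in the cultured libraries, against 11.2 and 12 CPM in the native ones. SPP1 rose by 4.15 ± 0.56 log2 units (adjusted p = 0.000417). Galectin-3, LGALS3 (chromosome 1, 184478639 to 184496155), was between 123 and 369 CPM (median 200) in the cultured libraries, against 10.3 and 11.7 CPM in the native ones. LGALS3 rose by 4.21 ± 0.43 log2 units (adjusted p = 7.17e-05). CCN3 fell (log2 change -2.82 ± 0.43, adjusted p = 0.000881), while CCN2 (-0.09, adjusted p = 0.853), TNC (-0.37, adjusted p = 0.645) and VIM (-0.74, adjusted p = 0.0735) were not called. The falls of elastic fibre and basement membrane genes numbered 7 and 7 without native replicate 1 and 2, the rises 0 and 0; in the matricellular list the rises numbered 3 and 3.

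In the TGF-beta and BMP pathway, 8 of 23 tested members fell and 1 rose (median -0.12), the falls being 2 ligands, TGFB2 and TGFB3, the inhibitors SMAD6, SMAD7 and BAMBI, and ID2, ID3 and ID4, which BMP signals induce. The ligand TGFB3 (chromosome 7, 99133873 to 99162239) was between 12.8 and 112 CPM (median 72.6) in the cultured libraries, against 328 and 421 CPM in the native ones. TGFB3 fell by 2.65 ± 0.32 log2 units (adjusted p = 0.000198). ID2, a target of BMP signals (chromosome 3, 127500759 to 127503207), was between 28.4 and 69.5 CPM (median 38.7) in the cultured libraries, against 201 and 320 CPM in the native ones. ID2 fell by 2.65 ± 0.20 log2 units (adjusted p = 1.06e-05). The inhibitory SMAD7 (chromosome 1, 98512800 to 98543924) was between 15.7 and 35.4 CPM (median 26.4) in the cultured libraries, against 123 and 139 CPM in the native ones. SMAD7 fell by 2.36 ± 0.20 log2 units (adjusted p = 2.38e-05). All cultured libraries were below both native ones for these genes and for SMAD6 (-2.36) and ID3 (-1.50), which fell too. TGFB1 (0.38, adjusted p = 0.299) and the receptors TGFBR1 (0.66, adjusted p = 0.213) and TGFBR2 (0.05, adjusted p = 0.91) were not called. Without native replicate 1 and 2 in turn the falls were 8 and 6.

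Cell cycle genes were higher in a minority of members, 5 of 30 tested (16.7%), with 1 lower (3.33%) and a median of 0.91. Over all genes tested 9.79% were called higher and 15.9% lower. By condition against native, 16 members were called higher in stented high flow, 5 in high flow, 2 in low flow and 1 in stented static. TYMS, thymidylate synthase (chromosome 6, 105642730 to 105660279), was between 4.66 and 65.7 CPM (median 17.7) in the cultured libraries, against 2.47 and 2.19 CPM in the native ones. TYMS rose by 2.88 ± 0.62 log2 units (adjusted p = 0.00612). The mitotic kinase BUB1 (chromosome 3, 45585188 to 45623240) was between 2.57 and 22.3 CPM (median 8.67) in the cultured libraries, against 1.63 and 2.42 CPM in the native ones. BUB1 rose by 2.26 ± 0.61 log2 units (adjusted p = 0.0192). CDKN2B, an inhibitor of the cycle, rose with them (log2 change 3.01 ± 0.62, adjusted p = 0.00492), and the G1 cyclin CCND1 fell (log2 change -1.73 ± 0.37, adjusted p = 0.00586). CDK1, at 1.26 to 15.9 CPM (median 8.67) in culture and 1.56 and 2.93 CPM in native, was not called (adjusted p = 0.0886). No member was called higher without either native library (adjusted p = 0.0683, 0.177 and 0.0627 for TYMS, BUB1 and CDKN2B without native replicate 1), and CCND1 was not called without native replicate 2 (adjusted p = 0.0901). The count of rises was 10 without stented high-flow replicate 1, 8 without stented static replicate 1 or high-flow replicate 2, and 13 without both stented static libraries.

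Cytokine and prostaglandin genes moved in both directions, 7 of 23 tested lower and 6 higher (median 0.18). With native replicate 1 and 2 left out in turn the falls numbered 5 and 5 and the rises 4 and 3. CXCL2, a neutrophil chemokine (chromosome 8, 70157253 to 70159145), was between 1.7 and 16.4 CPM (median 6.17) in the cultured libraries, against 278 and 361 CPM in the native ones. CXCL2 fell by 5.62 ± 0.42 log2 units (adjusted p = 1.07e-05). NFKBIA, the inhibitor that NF-kB itself induces, was between 35.7 and 138 CPM (median 50.9) in the cultured libraries, against 485 and 446 CPM in the native ones. NFKBIA fell by 2.95 ± 0.33 log2 units (adjusted p = 0.000128). The stromal chemokine CXCL12 was between 4.81 and 22.8 CPM (median 12.4) in the cultured libraries, against 82.4 and 73.3 CPM in the native ones. CXCL12 fell by 2.70 ± 0.33 log2 units (adjusted p = 0.000228). All of these lay below native throughout. CXCL14, a chemokine of epithelia and fibroblasts (chromosome 2, 137803988 to 137813118), went up, with 76.1 to 967 CPM in cultured vessels (median 368), against 10.9 and 11.3 CPM in native arteries (log2 change 5.15 ± 0.61, adjusted p = 0.000178), and so did CCL2, which attracts monocytes, with 223 to 1020 CPM in cultured vessels (median 411), against 106 and 92.1 CPM in native arteries. CCL2 rose by 2.14 ± 0.38 log2 units (adjusted p = 0.00199). IL11, a cytokine of the IL-6 family (chromosome 6, 59540482 to 59544909), had 0.973 to 182 CPM in cultured vessels (median 21.6), against 0.391 and 0 CPM in native arteries. IL11 passed the filter only through the cultured libraries, so its test is not used as support, and its call did not hold without native replicate 2. IL6 itself was 2.06 to 48.2 CPM (median 8.04) in culture and 23.3 and 31.1 CPM in native and overlapped native (adjusted p = 0.0229, or 0.0953 without native replicate 1). Of 24 interferon response genes 5 fell and none rose (median -0.33), beside 15.9% of all genes tested that fell. IRF1 (chromosome 2, 134776122 to 134783646) was between 11.4 and 24.7 CPM (median 18.1) in the cultured libraries, against 173 and 98.5 CPM in the native ones (log2 change -2.84 ± 0.26, adjusted p = 3.59e-05), whereas classical members such as MX1 (1.17, adjusted p = 0.147) and ISG15 (0.16, adjusted p = 0.824) were not called; 2 and 1 members fell without native replicate 1 and 2.

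Endothelial identity genes split. Of 19 identity genes 9 fell and 1 rose (median -0.85). TEK, the angiopoietin receptor (chromosome 1, 195938177 to 196052294), was between 3.75 and 39.6 CPM (median 13.1) in the cultured libraries, against 64.9 and 91.9 CPM in the native ones. TEK fell by 2.18 ± 0.37 log2 units (adjusted p = 0.00163). KDR, the main VEGF receptor (chromosome 8, 41809116 to 41856379), was between 6.67 and 51.4 CPM (median 14.6) in the cultured libraries, against 82.2 and 71.2 CPM in the native ones. KDR fell by 2.01 ± 0.38 log2 units (adjusted p = 0.00308). Both lay below native throughout, but PECAM1 (chromosome 12, 14667643 to 14723296), with 103 to 513 CPM in cultured vessels (median 218), against 388 and 489 CPM in native arteries, did not (adjusted p = 0.0678). CDH5 (-0.26, adjusted p = 0.597), NOS3 (-0.03, adjusted p = 0.971) and ERG (0.41, adjusted p = 0.402) were not called. ENG, an endothelial co-receptor that other wall cells also carry, rose (log2 change 1.59 ± 0.33, adjusted p = 0.00497), though not without native replicate 1 (adjusted p = 0.0678). Of 17 genes known to answer to flow in endothelium 7 fell and 3 rose, and 6 and 4 fell and 1 and 1 rose without native replicate 1 and 2 in turn. KLF2 (chromosome 2, 61270733 to 61273037), which laminar flow induces, was between 29.3 and 108 CPM (median 76.6) in the cultured libraries, against 337 and 354 CPM in the native ones. KLF2 fell by 2.23 ± 0.34 log2 units (adjusted p = 0.000783). Its relative KLF4 (chromosome 1, 248604817 to 248609574) was between 26.7 and 70.5 CPM (median 54.8) in the cultured libraries, against 449 and 438 CPM in the native ones. KLF4 fell by 3.09 ± 0.22 log2 units (adjusted p = 8.65e-06). Both were lower than native in every cultured library, with or without flow, and the test among the 4 conditions did not call either (adjusted p = 0.867 for KLF2 and 0.624 for KLF4). CYP1A1, a target of the aryl hydrocarbon receptor, was 0.514 to 98.5 CPM (median 26.8) in culture and 0.13 and 0.403 CPM in native. It passed the filter only through the cultured libraries, so its test is not used as support. Its call did not hold without native replicate 1 or 2. The summed identity list was 963 to 2660 CPM in the cultured libraries (median 1370), against 1690 and 1980 CPM in the native ones, the highest being stented static replicate 1. Identity falls numbered 4 and 4 without native replicate 1 and 2 in turn.

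Markers of the cells around the media were mostly lower. Of 17 adventitial fibroblast markers 12 fell and 3 rose (median -1.81), with a summed level of 4470 to 8160 CPM in the cultured libraries (median 5560), against 11500 and 11300 CPM in the native ones. PI16, a marker of adventitial progenitor-like fibroblasts (chromosome 7, 32600952 to 32613505), was between 2.29 and 12.8 CPM (median 4.59) in the cultured libraries, against 266 and 294 CPM in the native ones. PI16 fell by 5.76 ± 0.24 log2 units (adjusted p = 8.27e-07). SFRP4, a secreted Wnt antagonist (chromosome 9, 108404314 to 108414335), was between 1.3 and 3.16 CPM (median 2.44) in the cultured libraries, against 85.5 and 113 CPM in the native ones. SFRP4 fell by 5.32 ± 0.25 log2 units (adjusted p = 1.21e-06). SFRP2, another of that family (chromosome 8, 75337311 to 75345926), did the reverse, with 6.16 to 1090 CPM in cultured vessels (median 303), against 0.977 and 2.24 CPM in native arteries. SFRP2 rose by 6.82 ± 0.91 log2 units (adjusted p = 0.000357). PDGFRA, the growth factor receptor of fibroblasts, rose (log2 change 2.81 ± 0.61, adjusted p = 0.00649), and DCN, decorin, was at 984 to 3180 CPM (median 1720) in culture and 1650 and 1690 CPM in native and not called (adjusted p = 0.793). Within this list, members thus went both far down and far up. Of 13 Schwann cell and nerve markers 9 fell and 1 rose (median -1.41). PRX, periaxin, a protein of myelinating Schwann cells (chromosome 6, 48675230 to 48691760), was between 5.61 and 11.1 CPM (median 7.28) in the cultured libraries, against 91.8 and 73.9 CPM in the native ones. PRX fell by 3.44 ± 0.19 log2 units (adjusted p = 2.26e-06). The summed level of these nerve markers was 304 to 613 CPM in the cultured libraries (median 377), against 1500 and 1430 CPM in the native ones. Pericyte markers had 7 of 12 members lower and 3 higher: MCAM fell (log2 change -3.32 ± 0.21, adjusted p = 4.14e-06), and ANPEP, an aminopeptidase also made by activated mural cells and fibroblasts (chromosome 7, 55351081 to 55373856), rose (log2 change 4.24 ± 0.44, adjusted p = 7.71e-05). Without native replicate 1 and 2 in turn the falls were 7 and 7 for adventitial, 5 and 6 for Schwann and 4 and 5 for pericyte markers.

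Fat and heart muscle border the coronary artery, and their markers differed between libraries of 1 group as well as between groups. Adipocyte markers had 10 of 15 members lower (median -2.0) and none higher, with a summed level of 307 to 4330 CPM in the cultured libraries (median 475), against 4380 and 2790 CPM in the native ones. The groups did not overlap in 2 of the 10, and 4 and 6 fell without native replicate 1 and 2 in turn, 2 with all cultured libraries as 1 group. Stented static replicate 1 held the high value and the other stented static library had 532 CPM. ADIPOQ, adiponectin (chromosome 13, 124633906 to 124646237), was at 765 CPM in stented static replicate 1 and at 0 to 15.7 CPM in the other 8 cultured libraries, against 1080 and 615 CPM in native ones. Cardiomyocyte markers had 7 of 9 members lower (median -5.64), with a summed level of 14.8 to 80.3 CPM in the cultured libraries (median 62.6), against 2270 and 745 CPM in the native ones. MYH6, the atrial myosin, was at 0.035 to 3.56 CPM in cultured libraries and at 539 CPM in native replicate 1 but 1.67 CPM in native replicate 2. TNNT2 ran likewise, at 0 to 1.12 CPM, against 403 and 1.32 CPM, and without native replicate 1 neither was called (adjusted p = 0.427 for MYH6 and 0.129 for TNNT2). TNNC1, the slow and cardiac troponin C (chromosome 13, 34591571 to 34594320), was different in that both native libraries were high: it was between 1.9 and 31.1 CPM (median 15.8) in the cultured libraries, against 704 and 638 CPM in the native ones. TNNC1 fell by 5.64 ± 0.58 log2 units (adjusted p = 7.36e-05). The part of fat and heart muscle RNA in other genes that fell was not tested; without native replicate 1 the median of the cardiomyocyte list was -2.29, and 4 of its members fell.

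**Figure D4:**
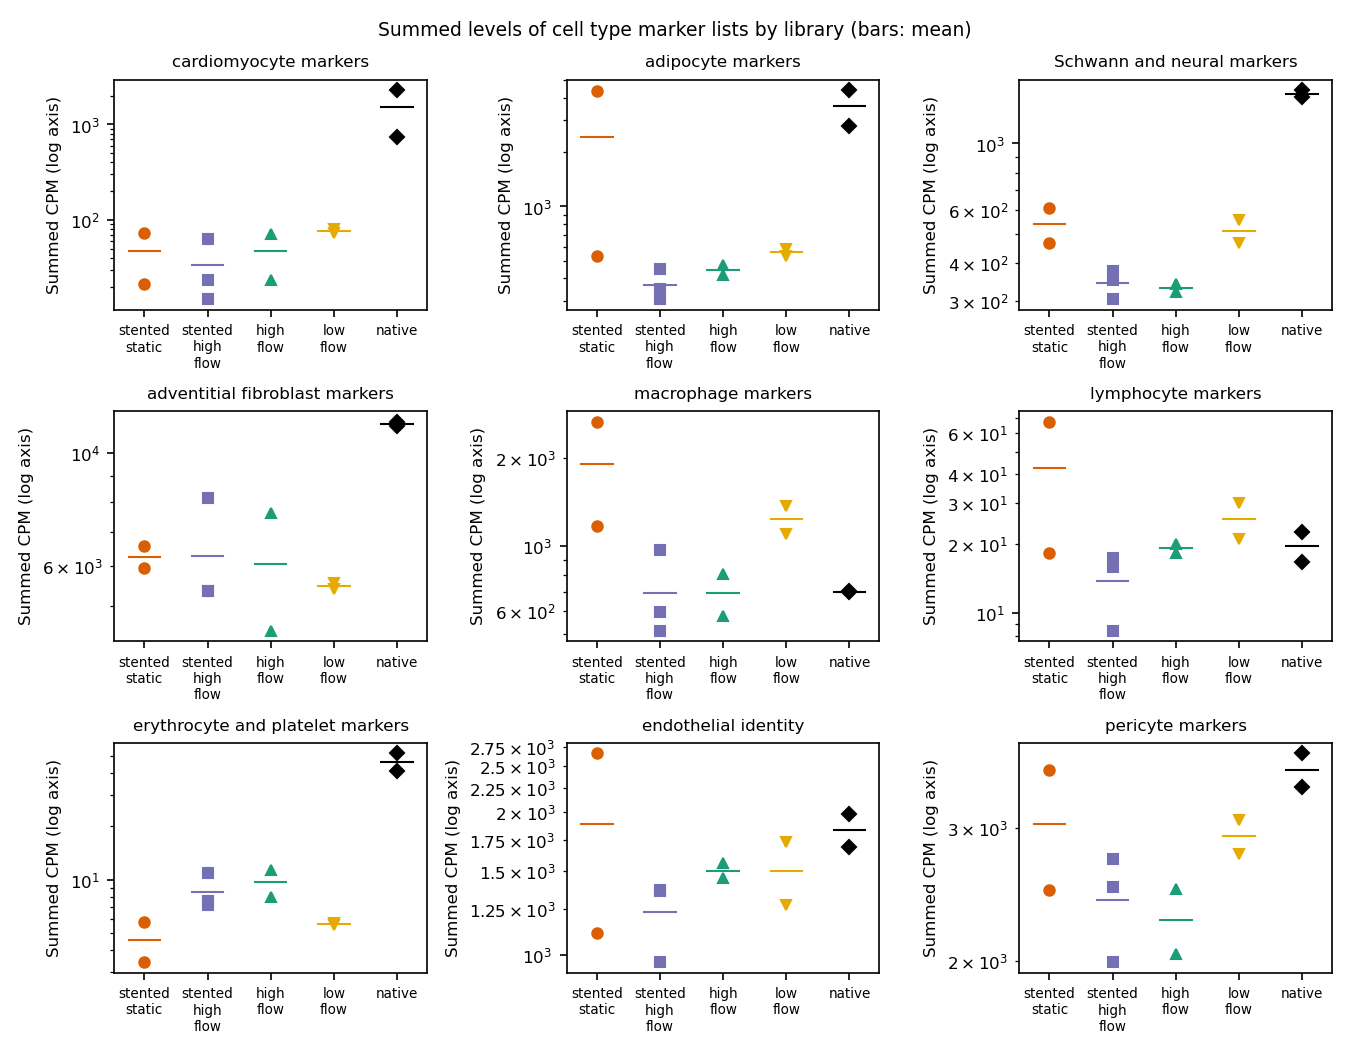
Summed CPM (log axes) of 9 lists of cell type markers by condition, 1 point per library, with bars at the group mean. Cardiomyocyte, Schwann and adventitial fibroblast sums are below both native libraries in all 9 cultured ones, while macrophage and lymphocyte sums span the native values and stented static replicate 1 stands high for adipocyte, macrophage and lymphocyte markers.

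Blood and immune markers did not fall as a block. Of 19 macrophage markers 5 rose and 1 fell (median 0.66), and their summed level was 514 to 2660 CPM in the cultured libraries (median 969), against 695 and 701 CPM in the native ones, highest in stented static replicate 1. The scavenger receptor CD163 (chromosome 5, 63300200 to 63334497) was between 93.1 and 1080 CPM (median 281) in the cultured libraries, against 55.2 and 46.1 CPM in the native ones. CD163 rose by 2.60 ± 0.48 log2 units (adjusted p = 0.00246). MSR1, another (chromosome 17, 3859903 to 3939612), was between 11.4 and 30.1 CPM (median 20.6) in the cultured libraries, against 2.93 and 3.11 CPM in the native ones. MSR1 rose by 2.70 ± 0.32 log2 units (adjusted p = 0.000178). Every cultured library was above both native ones for either gene. C1QA was 34.1 to 171 CPM (median 69.2) in culture and 90.3 and 85.3 CPM in native and not called (adjusted p = 0.692), and CSF1R fell (log2 change -1.62 ± 0.41, adjusted p = 0.0142; adjusted p = 0.123 without native replicate 1). Their part in the lysosome list, to which GPNMB and the cathepsins belong, was not tested. Among 9 tested lymphocyte markers 5 fell and none rose, and these were the T cell genes LCK, CD3E, CD8A, CD2 and CD4. CD3E, of the T cell receptor, had 0 to 0.356 CPM in cultured vessels (median 0), against 2.21 and 1.73 CPM in native arteries. CD8A had 0 to 0.198 CPM in cultured vessels (median 0), against 1.37 and 0.978 CPM in native arteries. CD3E, CD8A and CD2 passed the filter only through the native libraries, so no test of them is used as support. In stented static alone, against native, 0 lymphocyte markers were called lower and 2 higher (median -0.18). Falls numbered 5 in stented high flow, 3 in high flow and 3 in low flow. MS4A1, of B cells, had no count in any cultured library. The summed lymphocyte level was 8.41 to 67.1 CPM in the cultured libraries (median 18.3), against 22.5 and 16.6 CPM in the native ones, so the groups overlapped in the sum. Of 7 neutrophil and mast cell markers 2 fell and 1 rose. MS4A2, of mast cells (chromosome 2, 11400415 to 11420314), was between 0 and 0.385 CPM (median 0.154) in the cultured libraries, against 9.18 and 11 CPM in the native ones. MS4A2 too passed the filter only through the native libraries, so its test is not used as support. KIT, which mast cells and other cells carry, rose (log2 change 1.89 ± 0.39, adjusted p = 0.00488), though its call did not hold without native replicate 1 or 2. Of 4 erythrocyte and platelet markers 1 fell and 1 rose, the platelet chemokine PPBP, at 0.122 to 3.2 CPM (median 0.89) in culture and 0 and 0 CPM in native. PPBP passed the filter only through the cultured libraries, so its test is not used as support. Its call did not hold without native replicate 1 or 2. HBB, the beta globin of red cells, had 3 counts in all 9 cultured libraries, against 1366 in the native pair, a level 2590 times higher in native (counting interval 883 to 12600). Without native replicate 1 and 2 in turn 2 and 2 macrophage markers rose and 3 and 4 lymphocyte markers fell.

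Of the 12 largest rises among called genes without overlap whose log2 CPM averages 3 or more, 8 belong to none of the lists. CHI3L1, a chitinase-like secreted glycoprotein (chromosome 9, 113885541 to 113895033), was between 27.1 and 276 CPM (median 72.9) in the cultured libraries, against 0.716 and 0.23 CPM in the native ones. CHI3L1 rose by 7.97 ± 1.24 log2 units (adjusted p = 0.000939). RUNX2, a transcription factor best known from bone (chromosome 7, 40106581 to 40353304), was between 15.1 and 106 CPM (median 44.4) in the cultured libraries, against 0.586 and 0.403 CPM in the native ones. RUNX2 rose by 6.41 ± 0.57 log2 units (adjusted p = 2.76e-05). VDR, the vitamin D receptor (chromosome 5, 78205807 to 78266505), was between 15.3 and 141 CPM (median 74.8) in the cultured libraries, against 0.716 and 0.978 CPM in the native ones. VDR rose by 6.05 ± 0.41 log2 units (adjusted p = 6.93e-06). In these 3 genes the lowest cultured library was more than 10 times above the higher native one. CEMIP, which binds and helps degrade hyaluronan (chromosome 7, 49622534 to 49792547), was between 22.8 and 135 CPM (median 76.8) in the cultured libraries, against 0.977 and 0.863 CPM in the native ones. CEMIP rose by 6.17 ± 0.51 log2 units (adjusted p = 1.92e-05). SLC2A5, a fructose carrier (chromosome 6, 69507829 to 69535794), had 4.74 to 139 CPM in cultured vessels (median 44.3), against 1.17 and 0.173 CPM in native arteries. SLC2A5 rose by 6.09 ± 1.02 log2 units (adjusted p = 0.00147). UPP1, uridine phosphorylase (chromosome 18, 48418385 to 48440414), had 9.18 to 84.3 CPM in cultured vessels (median 16), against 0.391 and 0.115 CPM in native arteries. UPP1 rose by 6.38 ± 0.84 log2 units (adjusted p = 0.000328). MELTF, a cell surface transferrin relative (chromosome 13, 133094869 to 133122092), had 2.05 to 71.8 CPM in cultured vessels (median 26.2), against 0.26 and 0.288 CPM in native arteries. MELTF rose by 5.96 ± 0.67 log2 units (adjusted p = 0.000122). MYBPH, a myosin-binding protein (chromosome 9, 113872439 to 113884544), had 2.36 to 210 CPM in cultured vessels (median 23.4), against 0.521 and 0.345 CPM in native arteries (log2 change 6.79 ± 1.92, adjusted p = 0.0239), and alone among the 12 leading rises its call did not hold without native replicate 1 or 2 (adjusted p = 0.151 and 0.167).

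Of the 12 largest falls under the same limits, 4 belong to none of the lists. TNXB, tenascin-X, a matrix glycoprotein (chromosome 7, 24088873 to 24155815), was between 8.39 and 178 CPM (median 27.1) in the cultured libraries, against 1100 and 779 CPM in the native ones. TNXB fell by 4.86 ± 0.33 log2 units (adjusted p = 7.02e-06). ADAMTS15, a protease of proteoglycans (chromosome 9, 57127527 to 57152550), was between 3.7 and 46.8 CPM (median 26.3) in the cultured libraries, against 726 and 539 CPM in the native ones. ADAMTS15 fell by 5.17 ± 0.41 log2 units (adjusted p = 1.44e-05). ANGPTL7, an angiopoietin-like secreted protein (chromosome 6, 71350872 to 71356299), was between 0.672 and 16.4 CPM (median 5.19) in the cultured libraries, against 155 and 218 CPM in the native ones. ANGPTL7 fell by 5.13 ± 0.48 log2 units (adjusted p = 3.7e-05). PGM5, aciculin, a protein of muscle adhesion sites without known enzyme activity (chromosome 1, 221634516 to 221837764), was between 1.64 and 14.4 CPM (median 6.99) in the cultured libraries, against 164 and 194 CPM in the native ones. PGM5 fell by 4.94 ± 0.27 log2 units (adjusted p = 2.26e-06). Each stayed called in all 11 fits that left out 1 library, and in each the highest cultured library lay below both native ones.

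**Figure D5:**
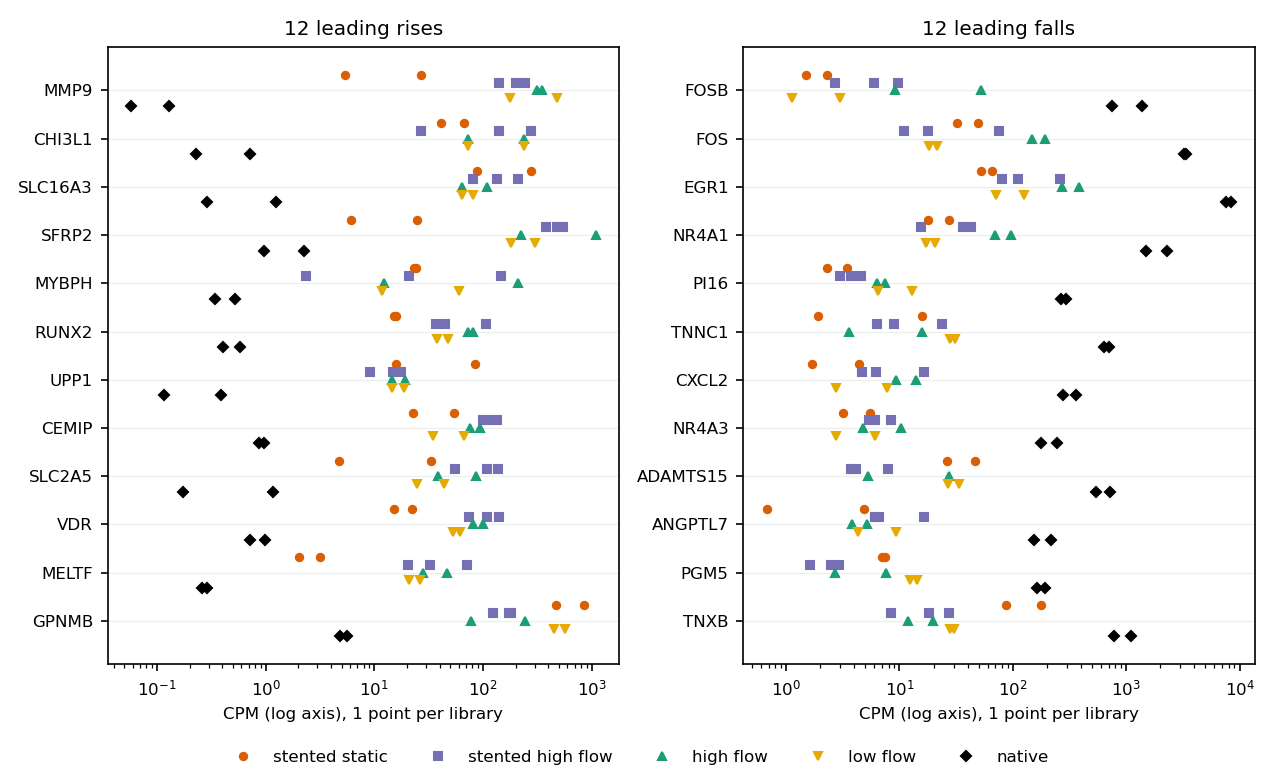
CPM on a log axis of the 12 largest rises (left) and 12 largest falls (right) among called, named genes whose groups do not overlap and whose log2 CPM averages 3 or more, 1 point per library coloured by condition. Cultured and native libraries do not overlap in any of the 24 genes by the way they were chosen; the stented static libraries are the lowest cultured ones for MMP9, SFRP2 and MELTF and the highest for TNXB.

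A few transcripts were present in one state and nearly absent from the other. Taking as present at least 30 counts in each library of a group, and as absent at most 3 counts over the native pair or in each cultured library, 6 transcripts appeared in culture and 5 were lost. Of those that appeared 4 have a symbol. Beside MMP9, these were TMPRSS11F, a membrane serine protease with 3.75 to 88.6 CPM in culture and 0 native counts (at least 288-fold higher, against 3 counts over the native pair), VWC2, a secreted BMP-binding protein with 1 native count (ratio 321, interval 57.5 to 12700), and FRK, a tyrosine kinase also with 1 native count (ratio 168, interval 30.1 to 6650). Those lost with a symbol were HBB, CRABP1, a retinoic acid binding protein with 4 counts in 9 cultured libraries against 577 in the native pair (819 times higher in native, interval 318 to 3020), the potassium channel subunit KCNS1 with 8 counts against 78 (55.4 times, 26.8 to 133) and RERGL, a small GTPase relative of vascular smooth muscle with 0 cultured counts against 101 (at least 191-fold lower). With at most 10 counts in place of 3, 12 transcripts appeared and 40 were lost.

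Genes that fell with the least spread among the 9 cultured libraries were those at the count floor. KY, CD6, FCRLA and PRND, like RERGL, had no count in any cultured library. That allows at most 0.105 to 0.215 CPM in each, against 0.651 to 2.01 CPM in native ones. These genes passed the filter only through the native libraries, so no test of them is used as support. CD6 and FCRLA were tested in 9 of the 11 fits that left out 1 library. CD6 is a surface receptor of T cells and FCRLA a protein of B cells. TRIM62, a ubiquitin ligase (chromosome 6, 89406470 to 89442794), was the only one of the 6 most uniform genes that was expressed throughout: it had 7.41 to 10.6 CPM in cultured vessels (median 8.96), against 37.1 and 34.5 CPM in native arteries. TRIM62 fell by 2.01 ± 0.20 log2 units (adjusted p = 5.04e-05).

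Of 3459 called genes with no overlap, edgeR called 53 as differing among the 4 cultured conditions too. A gene not called in that test is not shown to be alike in all conditions, and its calls over all genes numbered 50 to 440 when 1 library was left out. In the 6 with the smallest p for that, the stented static libraries stood apart from the other 7 each time. NTRK2, the receptor of the neurotrophin BDNF (chromosome 10, 30030050 to 30429938), had 63.9 and 143 CPM in the stented static libraries. It had 2.51, 4.66 and 3.84 CPM with stent and high flow, 5.95 and 5.65 CPM with high flow alone and 40.7 and 28.1 CPM with low flow, against 192 and 215 CPM in native vessels (adjusted p among conditions 0.00051). It lay nearest to native in stented static and furthest from it in both high-flow conditions, with low flow between. PRSS35, a protease-like secreted protein (chromosome 1, 82714880 to 82734883), had 0.474 and 0.608 CPM in the stented static libraries. It had 124, 72.6 and 70.2 CPM with stent and high flow, 130 and 26.5 CPM with high flow alone and 28.6 and 36.1 CPM with low flow, against 0.456 and 0.46 CPM in native vessels (0.00749). MT1X, a metallothionein that binds zinc and copper, was at 2250 and 291 CPM in stented static and 13.6 to 44.6 CPM in the other 7, against 5.21 and 6.38 CPM in native vessels (0.0088); reads of metallothioneins may be shared between near-identical copies, so its level is uncertain.

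The other 3 fell less in static culture. PLPP4, a lipid phosphatase, was at 2.69 and 3.1 CPM in stented static and 0 to 0.814 CPM elsewhere in culture, against 5.93 and 7.19 CPM in native vessels (adjusted p among conditions 0.0088). IL2RA, the interleukin 2 receptor alpha chain, was at 6.09 and 5.11 CPM in stented static and 0.431 to 1.33 CPM in the other 7, against 6.19 and 6.38 CPM in native ones (0.0135), and STUM was at 2.88 and 2.13 CPM in stented static and 0 to 0.664 CPM in the other 7, against 5.4 and 5.46 CPM (0.014). For IL2RA, PLPP4 and STUM the stented static libraries were thus the nearest to native. The conditions also differed in 8 other genes described above, SFRP2, VDR, MELTF, PGM5, TNXB, HMOX1, MMP12 and P4HA3 (adjusted p = 0.0232 to 0.0482). The stented static libraries carry a d suffix of 3 in the labels and stented high-flow replicate 3 one of 7, and what the suffix means is not given. The stented static libraries also lack Y-linked counts, as low flow does. Neither can be told apart from stent and flow.

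Many genes stayed within 2-fold of native. For 4332 genes (28.2% of those tested) the 95% interval of the change lay within 2-fold, and 12 of them were also called. For 7079 genes (46.1%) neither a change was called nor was one beyond 2-fold excluded by the interval. Where log2 CPM averaged 5 or more, the narrowest intervals belonged to AFAP1 (-0.40 ± 0.17), SIK3 (-0.60 ± 0.17), POLDIP3 (-0.37 ± 0.17), UBTF (-0.57 ± 0.17), NEURL1 (-0.37 ± 0.17) and CTCF (-0.36 ± 0.17). CTCF, the insulator protein (chromosome 6, 28188002 to 28261009), was between 57.1 and 68.4 CPM (median 60.8) in the cultured libraries, against 78.9 and 81.3 CPM in the native ones, and POLDIP3 (chromosome 5, 6174442 to 6201941), which acts in RNA export, was between 125 and 147 CPM (median 137) in the cultured libraries, against 179 and 171 CPM in the native ones. Both were a little lower in every cultured library. SIK3 and UBTF, a kinase and a factor of ribosomal RNA transcription, were also called lower (adjusted p = 0.0245 and 0.0312). With 1 library left out in turn, SIK3 kept its call in 7 and UBTF in 4 of 11 fits. Neither call held without native replicate 1 or 2.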

How the data were processed

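RNA from whole porcine coronary arteries, flash frozen and sequenced as paired ends per the labels, gave 2 deposited tables of gene counts that share both native libraries: 1 holds the stented and 1 the unstented cultured vessels. Values are raw whole-number counts per gene as the authors deposited them. The submitters' processing notes name Trimmomatic, FastQC, DESeq2 and the Sscrofa11.1 build. Aligner, annotation release and strand setting are not given in these sources, so reads of overlapping genes and near-identical copies cannot be told apart. The authors' own lists of called genes were not used.

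Both tables were joined by gene identifier, with 13496636 to 26785124 counts a library, at which 3 counts equal 0.105 to 0.215 CPM. Identifiers were paired with symbols and Sscrofa11.1 coordinates through RefSeq and gene name tables, 14857 of 25880 with a symbol. edgeR 4.0.16 (R 4.3.3) kept 15348 genes by its default filter on 5 groups, scaled by TMM and fitted 1 quasi-likelihood model; cultured is the mean of 4 condition coefficients minus native. Log2 CPM used a prior count of 2. Counting intervals, at 95%, cover counting error only. limma 3.58.1 and DESeq2 1.42.0 were alternatives, with those under the processing heading; the fits were tested on simulated data. Members are all cultured libraries by label, and 37 gene lists (818 symbols, 722 matched, 700 tested) were written with earlier results of these data known. Named by rule were the 12 largest rises and 12 largest falls, up to 3 called members of each list, the 6 most uniform, the 6 that most differed among conditions, gained and lost transcripts, the 6 narrowest within 2-fold and 14 fixed genes; other list members were chosen after their values were seen. Replicate numbers were checked for pairing and share only a number. Native replicate 2 and stented high-flow replicate 1 both carry the number 25 in their labels and may share a vessel or animal, which the labels do not say (correlation of their deviations 0.0412). Promoter motifs were not analysed here. Some list members are not reported here.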

Additional observations from a re-analysis of the deposited data

Results flagged for a closer look

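Genes that differ from native and also differ among the 4 cultured conditions were picked out by edgeR's F test among conditions, and 14 of the 150 genes named in the text met it. NTRK2 had an adjusted p of 0.00051, PRSS35 of 0.00749, MT1X and PLPP4 of 0.0088 each, IL2RA of 0.0135 and STUM of 0.014; these 6 were named for that difference. Among genes named for other reasons the adjusted p was 0.0232 for VDR, 0.0236 for TNXB, 0.0285 for MELTF, 0.0353 for MMP12, 0.0424 for P4HA3, 0.0433 for PGM5, 0.0475 for HMOX1 and 0.0482 for SFRP2. In HMOX1 and TNXB the stented static libraries were the 2 highest of the 9, and in VDR, MELTF, SFRP2 and MMP12 the 2 lowest.

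Single libraries stood off from the other 8 cultured ones in 13 of 150 named genes, 5 of 37 list sums and the mitochondrial share. The measure is the gap to the nearest library over the whole range of the 9. Gaps of genes and list sums are on the log2 CPM scale, that of the mitochondrial share on percent. The CPM printed beside a gap is the level of the library. Gaps were judged by Dixon's 95% critical value for 9 samples, which chance alone passes in about 1 of 20 groups. Stented static replicate 1 was that library most often. It was the high one for UPP1 (gap 0.671 of the range, 84.3 CPM), CTSB (0.604, 4820 CPM), P2RX1 (0.554, 2.02 CPM), CD3E (0.687, 0.356 CPM) and FCER1A (0.658, 0.711 CPM). It was the low one for ACTA2 (0.623, 42.6 CPM), TGFB3 (0.601, 12.8 CPM), HTR2A (0.621, 2.96 CPM), ANGPTL7 (0.529, 0.672 CPM) and SFRP4 (0.551, 1.3 CPM). Its list sums were low for contractile genes (0.53, 1470 CPM) and high for lysosome genes (0.537, 18500 CPM), oxidative stress genes and NRF2 targets (0.528, 4980 CPM) and adipocyte markers (0.757, 4330 CPM).

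High-flow replicate 2 was high for the mitochondrial share (0.528, at 8.65%), and low for IDH3A (0.612, 14.3 CPM) and KLF4 (0.523, 26.7 CPM). High-flow replicate 1 was high for the interferon list (0.495, 1070 CPM). HBB was at 0 in all cultured libraries except low-flow replicate 1, at 0.128 CPM, which makes the gap the whole range (1).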

How the results depend on the processing

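Calls against native numbered 2798 to 4685 in 15 of the alternatives, within 1.5 times the 3949 reported: DESeq2 gave 4685, limma-voom 3864, RLE size factors 3940, no filter 4426, a minimum of 10 counts per library 2804, all cultured libraries as 1 group 3301, the stented libraries alone 2798 and those without a stent 4441. Leaving out 1 library gave 1693 to 4492 calls, 365 to 1808 higher and 1309 to 2684 lower, 1657 to 3860 without overlap (364 to 1613 higher, 1273 to 2394 lower), 1865 to 4815 within 2-fold, 50 to 440 differing among conditions, and -5.88 to -5.20 points in the mitochondrial share. At an adjusted p of 0.01, 2064 genes were called, 562 higher and 1502 lower, 1969 without overlap (552 higher) and 26 among conditions. Tested against 2-fold, 1493 were called, 371 higher and 1122 lower, 1409 without overlap (361 higher, 1048 lower). The number differing among conditions depended most on the tool, at 1269 in DESeq2, 753 with no filter and 100 with that minimum. At 10 counts 12 transcripts were gained and 40 lost. Chosen after seeing the data, leaving out both stented static libraries gave 4305 calls and a share difference of -5.11 (exact p = 0.0556), and leaving out stented static and low flow, which lack Y-linked counts, 3716 calls. COL1A1, not called, turned to 0.04 in the libraries without a stent, 0.15 without stented static, 0.17 without stented static and low flow, and -0.40 to 0.05 with 1 library left out, the last without native replicate 2. Of the named genes, 40 lost their call without native replicate 1 and 37 without native replicate 2. Replicate numbers did not pair samples (20 pairs, correlations of deviations -0.329 to 0.183, 6 above 0.1); with the replicate block 3592 genes were called and 81 among conditions, and of the named genes PSMD14 (adjusted p = 0.0562) and UBTF (0.0542) lost their call. The cause was not tested for any of these shifts. Promoter motifs were not analysed here. Depth limits the lowest genes: 3 counts equal 0.105 to 0.215 CPM.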

Other observations

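Genes often used to scale expression between samples did not all keep their level between cultured and native vessels. Of 16 such genes, chosen after GAPDH and ACTB had been seen, 13 were matched, 5 were called by edgeR and 5 had an interval within 2-fold. GAPDH changed by 1.90 on the log2 scale, TFRC by 1.80, GUSB by 1.52 and PGK1 by 1.44. ACTB changed by -0.46, YWHAZ by -0.31 and SDHA by -0.13. The values nearest to 0 were those of TOP2B (0.03) and RPL4 (0.05), while RPLP0 had 0.68 and HPRT1 0.93. For scale, the median over all genes tested was 0.02 with TMM size factors.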
